A study of Homo sapiens with 48 samples.

Results

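The genes described here are 42 genes for folding, quality control and export of proteins made at the endoplasmic reticulum (ER). They were chosen by symbol for their known roles, with earlier results of these data known, and all 42 were found among the 37706 genes of the deposited count table. All 42 also passed the filter on low counts, with 17749 genes passing in all, and the lowest count of any member in any library was 35. By role, 12 are ER lumen chaperones and their partners, 7 are enzymes that form disulfide bonds or turn prolines, 8 act in ER-associated degradation, 12 in translocation and signal peptide cleavage, and 3 in vesicle traffic and retrieval.

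A secreted protein enters the ER through the SEC61 channel, loses its signal peptide, is folded by chaperones such as HSPA5 and by disulfide isomerases, and leaves in COPII vesicles, while misfolded chains are sent back to the cytosol for degradation. When unfolded protein builds up, the sensors ERN1, ATF6 and EIF2AK3 start the unfolded protein response, in which the factor XBP1 and cleaved ATF6 switch on many of these genes. The same genes rise when a B cell becomes an antibody-secreting plasma cell, a step that needs PRDM1 and XBP1. Germinal centre B cells, from which this lymphoma type takes its name, hold that programme low, and the study asked what inhibiting DOT1L and EZH2 does to the identity of such cells.

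RNA sequencing was done on 48 libraries from 4 human lymphoma cell lines, all classed as diffuse large B-cell lymphoma with a germinal centre origin. The lines were SUDHL6, Oci-Ly18, Oci-Ly8 and Oci-Ly7, each grown in culture with no other cells. Each line was treated for 6 days with vehicle (DMSO), with EPZ-5676, an inhibitor of the histone H3 lysine methyltransferase DOT1L (DOT1Li), with GSK343, an inhibitor of the Polycomb methyltransferase EZH2 (EZH2i), or with both (combination), with 3 replicates of each. Cells were reseeded partway through in fresh medium and inhibitors. The labels give no doses and do not say whether replicates were separate cultures, so p-values measure the spread between these samples, which may be technical.

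Library totals ran from 5174269 counts in Oci-Ly8 DOT1Li replicate 3, with 11391942 the next lowest, to 18845074. That library and Oci-Ly8 DMSO replicate 3 stood apart by having fewer counts from long transcripts: the slope of log2 expression on log2 transcript length, against the mean of the line, was -0.0975 and -0.133, and no lower than -0.0298 in any other library. Results in Oci-Ly8 are therefore also given without this pair where a call rests on it. Summed markers of B cells were at 976 to 2607 counts per 1000000 (CPM) in every library, against at most 14.3 for 7 T cell markers, 22.7 for 5 NK cell markers and 26.3 for 6 of 8 myeloid markers found in the table (S100A8 and S100A9 were not among its genes). Markers of epithelial and stromal cells, 10 genes, summed to between 6.01 and 119 CPM.

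Several of the 42 genes carry in their promoters the letters that unfolded protein response factors are known to bind, and these sequences are shown because their holders include the 4 members with the highest levels per kilobase, CALR, HSPA5, HSP90B1 and CANX, and SDF2L1, which had the largest fall in the average of the combination. Other holders were less abundant, CRELD2 ranking 32 of 42 and HERPUD1 26. Promoters were taken from RefSeq (GRCh38.p14) for 36 of the 42 genes, those of PDIA3, DERL1, DERL3, SEC24D, SPCS1 and KDELR2 not being matched. The ER stress element, CCAAT and CCACG with 9 bases of any kind between them, was searched on both strands in the 250 bases before each start. Only exact matches of the fixed letters were taken, so near matches are neither counted nor marked. It was in 6 of the 36 genes (16.7%), against 25 of all 27305 genes with a promoter (0.0916%). Capitals mark the fixed letters, and each element is turned so that CCAAT comes first.
HSPA5 (chr9:125241391-125241409, minus strand, 66 to 48 bases before the start): CCAATcggcggcctCCACG
HSP90B1 (chr12:103930216-103930234, plus strand): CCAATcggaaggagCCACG
HSP90B1 (chr12:103930321-103930339, minus strand): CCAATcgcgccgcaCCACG
PDIA6 (chr2:10812853-10812871, minus strand): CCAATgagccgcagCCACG
CALR (chr19:12938384-12938402, minus strand): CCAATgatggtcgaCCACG
CANX (chr5:179698778-179698796, plus strand): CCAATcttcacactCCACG
CRELD2 (chr22:49918554-49918572, minus strand): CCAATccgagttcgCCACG

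The second form, ER stress element II, ATTGG and CCACG with 1 base of any kind between them, was in 3 of the 36 genes (8.33%), against 18 of 27305 (0.0659%). HYOU1 held it in 2 places with the same letters.
HYOU1 (chr11:119057380-119057390 and chr11:119057274-119057284, plus strand): ATTGGaCCACG
SDF2L1 (chr22:21642114-21642124, minus strand): ATTGGtCCACG
HERPUD1 (chr16:56932025-56932035, plus strand): ATTGGgCCACG
In their surroundings, read along the gene, with the elements in capitals, the HSPA5 stretch covers chr9:125241384-125241473 (minus strand), the SDF2L1 stretch chr22:21642092-21642191 (plus strand) and the HYOU1 stretch chr11:119057266-119057405 (minus strand).
HSPA5: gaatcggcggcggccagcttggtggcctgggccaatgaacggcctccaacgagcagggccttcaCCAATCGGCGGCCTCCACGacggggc
SDF2L1: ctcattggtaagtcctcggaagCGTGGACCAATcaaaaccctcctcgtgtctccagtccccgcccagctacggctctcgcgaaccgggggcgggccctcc
HYOU1: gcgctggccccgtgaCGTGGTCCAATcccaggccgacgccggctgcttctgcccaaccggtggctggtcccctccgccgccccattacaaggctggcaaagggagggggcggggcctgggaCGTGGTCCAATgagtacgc
The letters of the unfolded protein response element, TGACGTGG, were in 4 of the 36 genes (11.1%; HYOU1, SSR3, SSR4 and TXNDC5) and in 0.78% of all genes, and in HYOU1 they overlap an ER stress element II. The letters of an ATF4 site, TGATGCAAT, were in none of the 36 and in 0.271% of all genes. The plain CCAAT box, part of the ER stress element, was in 29 of the 36 (80.6%) and in 37% of all genes. A match is a description of letters in this window, not of a bound site.

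**Figure D1:**
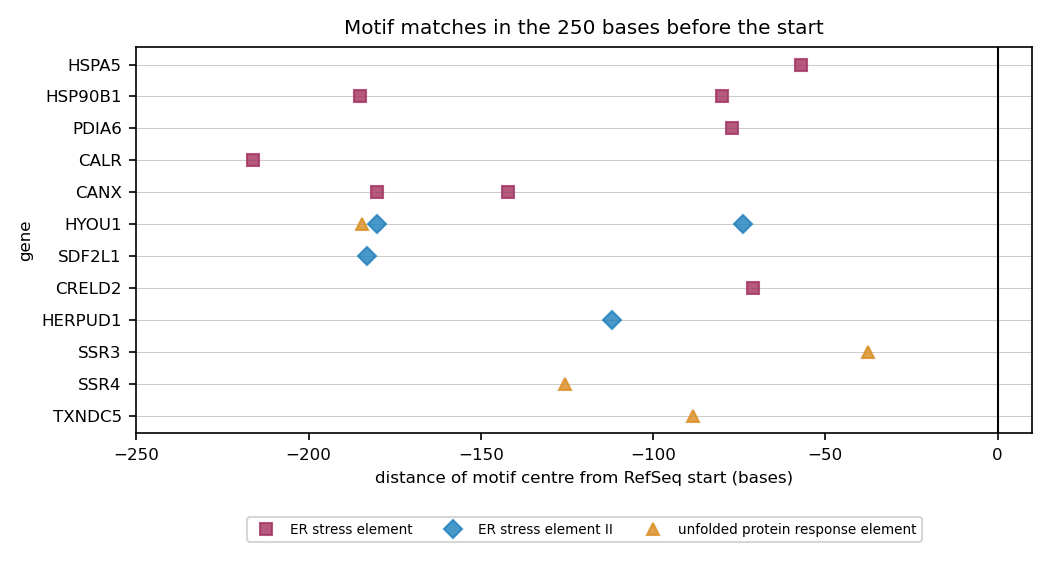
Distance in bases (x axis) from the centre of each motif match to the RefSeq start (vertical line at 0) for the 12 genes (y axis) with a match to the ER stress element (squares), ER stress element II (diamonds) or unfolded protein response element (triangles). HSPA5 has a single square, its only exact match, close to the start, and HSP90B1 has a pair. The 2 squares of CANX are 1 element measured from 2 of its 4 RefSeq starts.

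In DMSO the 42 genes were expressed at widely different levels. Per kilobase of exon, so that genes can be compared, CALR, a calcium-binding chaperone of glycoproteins, had the highest level, 525.7 CPM per kb as the mean of the 4 lines. The chaperones HSPA5 (209.8), HSP90B1 (204.5) and CANX (146.7) followed, and the lowest levels were those of the derlin DERL3 (3.42) and the disulfide isomerase TXNDC5 (2.84). Exons of TXNDC5, DNAJB11, FKBP11, KDELR2, SSR1 and SYVN1 overlap those of another protein-coding gene on the same strand in GENCODE 29, so counts of these 6 genes, and their levels per kilobase, are uncertain where the counting could split or drop shared reads.

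The lines differed in DMSO for all 42 genes by an F test in edgeR, against a background of 93.1% of all genes. Oci-Ly7 had the highest mean for 29 members, Oci-Ly8 for 12 and SUDHL6 for 1 (DERL3). Oci-Ly18 was lowest for 21, SUDHL6 for 16 and Oci-Ly8 for 5. The COPII coat gene SEC24D differed most, 4.49-fold between Oci-Ly7 and Oci-Ly18, and the signal peptidase gene SPCS1 least, 1.20-fold. Together the 42 genes took from 0.61% to 1.18% of the counts of a library. Their share in DMSO was 1.09% ± 0.0165 in Oci-Ly7 and 0.951% ± 0.00674 in Oci-Ly8, against 0.72% ± 0.0221 in SUDHL6 and 0.645% ± 0.0145 in Oci-Ly18 (SD, n = 3 each).

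**Figure D2:**
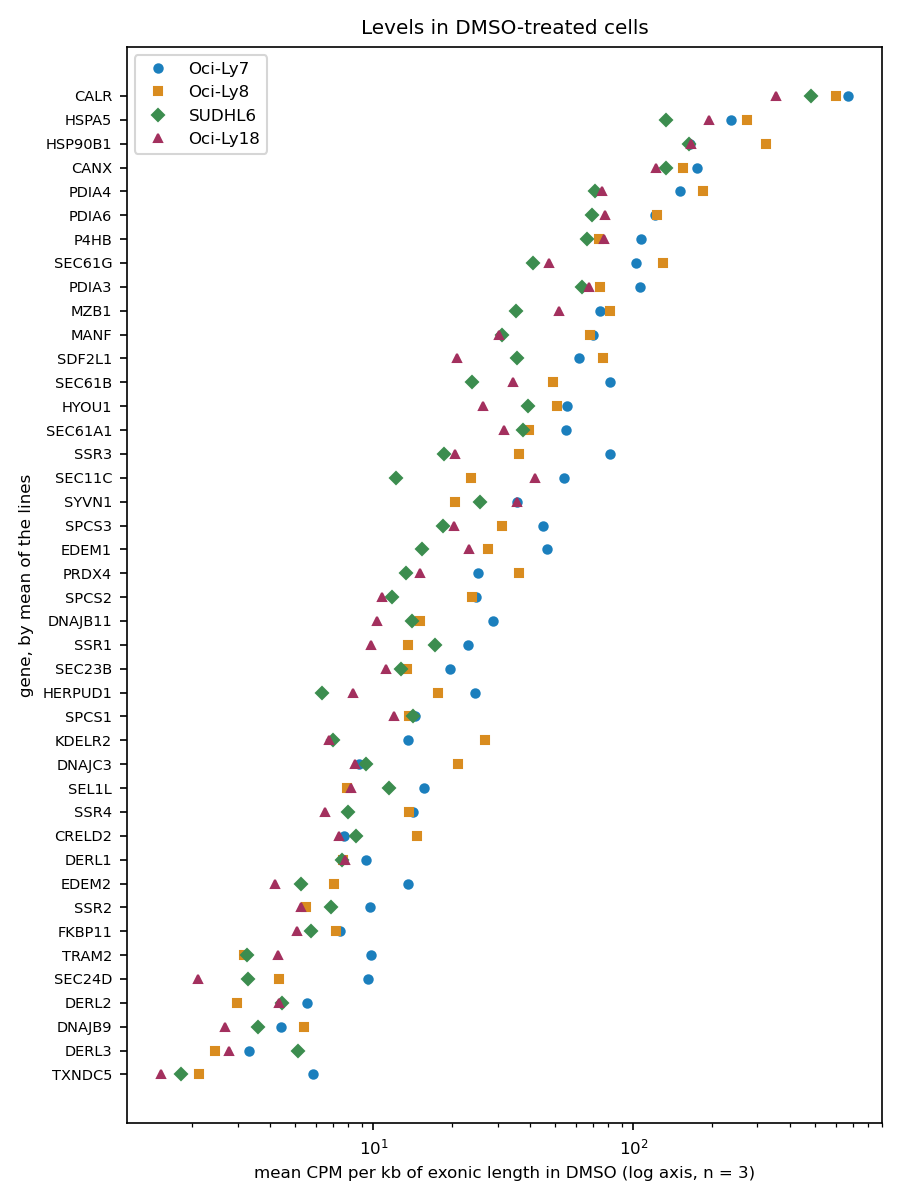
Mean level in DMSO, in CPM per kb of exonic length on a log axis (n = 3 libraries per line), of each of the 42 genes (y axis, ordered by the mean of the lines). Oci-Ly7 (circles) is the rightmost symbol for 29 genes and Oci-Ly18 (triangles) the leftmost for 21.

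DOT1L inhibition lowered these genes by small amounts on average, with little shift in Oci-Ly18. Averaged over the 4 lines, 25 of the 42 genes were lower than in DMSO and 1 was higher by edgeR's quasi-likelihood test (adjusted p under 0.05 over all genes), where 5.19% of all genes were lower and 5.08% higher. Among the 8792 genes at least as abundant on average as the lowest member, 9.9% were lower and the median log2 fold change was -0.02. The median log2 fold change of the 42 genes was -0.13, against 0.01 for all genes tested, and 40 of the 42 values were below 0. The count of lower genes rested in part on single libraries: it was 16 without Oci-Ly7 DMSO replicate 1 and 16 without Oci-Ly7 DOT1Li replicate 3. In these bulk samples, less RNA per cell and fewer cells with the RNA cannot be told apart.

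The falls under DOT1Li ran through every role: 8 of 12 chaperones, 5 of 7 folding enzymes, 4 of 8 degradation genes, 6 of 12 translocation genes and 2 of 3 traffic genes. The largest were those of EDEM2, which directs misfolded glycoproteins to degradation (log2 -0.30, SE 0.070, adjusted p 0.00278), SEC11C, a catalytic subunit of signal peptidase (-0.29, SE 0.062, adjusted p 0.00125), and SDF2L1, a partner of the HSPA5 chaperone cycle (-0.29, SE 0.073, adjusted p 0.00721). PDIA3, the disulfide isomerase that works with calreticulin and calnexin, fell by 0.25 (SE 0.036, adjusted p 1.77e-06), which is 1.19-fold lower. HSPA5, the main Hsp70 chaperone of the ER, fell by 0.24 (SE 0.049, adjusted p 0.00051), and HSP90B1, the ER form of Hsp90, by 0.11 (SE 0.036, adjusted p 0.0325), a call that was lost in 10 of 48 fits that each left out 1 library. DERL3, which helps move misfolded proteins out of the ER, was the member that rose (0.28, SE 0.060, adjusted p 0.00109). TXNDC5 had the lowest estimate of all, -0.32, without passing the test (adjusted p 0.084).

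In single lines the same inhibitor gave fewer calls, and 19 members had a log2 fold change below 0 in all 4 lines while none was above 0 in all 4, against 10.3% and 9.99% of all 17749 genes. The median log2 fold change of the members was -0.20 in Oci-Ly7, -0.20 in Oci-Ly8, -0.11 in SUDHL6 and -0.015 in Oci-Ly18. In Oci-Ly18, 25 of the values were below 0 and 17 above. In Oci-Ly7, 8 members were lower and none higher (background 1.17% lower, 1.72% higher), led by SEL1L, the scaffold of the HRD1 degradation complex (-0.38, SE 0.091, adjusted p 0.00988). SEL1L stood at 163, 145 and 142 CPM in DMSO and at 132, 102 and 112 CPM with DOT1Li, so the groups did not overlap. This count depended on every library of the comparison: it was 0 without Oci-Ly7 DOT1Li replicate 2 or replicate 3, 20 without replicate 1, and 3, 2 and 5 without DMSO replicates 1, 2 and 3. The call of SEL1L was lost without DMSO replicate 1, DOT1Li replicate 2 or DOT1Li replicate 3 (adjusted p up to 0.205).
In Oci-Ly8, 6 members were lower and 1 higher (background 2.73% and 3.53%). EDEM2 led the falls with 16.5, 9.13 and 14.8 CPM in DMSO against 10.6, 8.81 and 7.52 with DOT1Li, ranges that overlap (-0.54, SE 0.15, adjusted p 0.0175). SYVN1, the HRD1 ubiquitin ligase, rose by 0.22 (SE 0.067, adjusted p 0.0385). Without the pair of libraries low in long transcripts, EDEM2 was at -0.40 (adjusted p 0.171), SYVN1 at 0.17 (adjusted p 0.155), HSP90B1 at -0.17 (adjusted p 0.152), and 4 members were lower and none higher. Leaving out single libraries, 13 members were lower in Oci-Ly8 without DMSO replicate 1 or replicate 2, 14 without DOT1Li replicate 3 and 2 without DOT1Li replicate 2. The EDEM2 call was also lost without DMSO replicate 1 alone, and that of SYVN1 without combination replicate 3; both were lost without DMSO replicate 3 or DOT1Li replicate 2. A fit of the Oci-Ly8 libraries alone called no member for DOT1Li, and the adjusted p was 0.232 for EDEM2, 0.414 for HSP90B1 and 0.425 for SYVN1. With no filter on low counts it was 0.251 for SYVN1. In SUDHL6, 2 members were lower, HSPA5 (-0.36, SE 0.099, adjusted p 0.0206) and HSP90B1 (-0.28, SE 0.073, adjusted p 0.0163), and none was higher (background 2.11% and 2.76%). Both calls were lost without DMSO replicate 1 or DOT1Li replicate 2, HSPA5 also without DMSO replicate 3 and HSP90B1 without DOT1Li replicate 1, and 4 members were lower without DOT1Li replicate 3. In a fit of the SUDHL6 libraries alone HSPA5 was not called (adjusted p 0.142). In Oci-Ly18, 2 were lower and 1 higher (background 2.12% and 4.03%), with 1 lower when DMSO replicate 2 or 3 or any DOT1Li library was left out. The share of members lower was 4.76% in SUDHL6 and in Oci-Ly18. It was near the 4% and 3.74% of genes at least as abundant as the lowest member.

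Differences between lines in the response to DOT1Li were called for 3 members, against 5.14% of all genes: DERL3 (adjusted p 1.30e-06), EDEM1 (0.000124) and HSP90B1 (0.0483). There were 5 such members without Oci-Ly7 DOT1Li replicate 1 or Oci-Ly8 DOT1Li replicate 3 and 6 without Oci-Ly8 DMSO replicate 2. DERL3 (chr22:23834503-23839128) was at 10.5, 11.9 and 9.32 CPM in Oci-Ly18 with DMSO and at 23.8, 22.3 and 20.5 CPM with DOT1Li, 2.11-fold higher (log2 1.08, SE 0.12, adjusted p 3.79e-09). In Oci-Ly7 it was at 11.3, 13.1 and 13.4 CPM with DMSO and at 13.1, 10.9 and 12.1 CPM with DOT1Li, and the groups overlapped. EDEM1 (chr3:5187646-5219958), a lectin that picks out misfolded glycoproteins, went the other way in Oci-Ly18, from 152, 156 and 163 CPM to 101, 92.9 and 108 CPM (-0.64, SE 0.087, adjusted p 6.76e-07). For DOT1Li both genes were called in Oci-Ly18 and in no other single line, in opposite directions.

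EZH2 inhibition had no common direction across the lines. Averaged, 7 members were higher and 2 lower (background 15.7% and 12.5%), and the median log2 fold change was 0.02, against 0.03 for all genes. TRAM2, a translocation-associated membrane protein, rose most (0.36, SE 0.052, adjusted p 2.86e-07). DNAJB9 (0.31, SE 0.089, adjusted p 0.00709) and DNAJC3 (0.16, SE 0.047, adjusted p 0.00683), J-domain partners of HSPA5, and SEC11C (0.16, SE 0.061, adjusted p 0.0443) came next, the call of SEC11C being lost in 20 of 48 fits that each left out 1 library. Without Oci-Ly8 DMSO replicate 3, 11 members were higher. The members that fell were PDIA3 (-0.13, SE 0.036, adjusted p 0.00326) and CALR (-0.11, SE 0.034, adjusted p 0.0084). HSPA5 was at 0.00 (adjusted p 1) and HSP90B1 at -0.07 (adjusted p 0.128). By role, 4 translocation genes, 2 chaperones and 1 folding enzyme rose, and no degradation or traffic gene was called.

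Behind that average, the lines responded in opposite directions. In Oci-Ly7, 16 members were lower and none higher with EZH2i (background 4.92% and 8.78%). In Oci-Ly8, 16 were higher and none lower (background 9.04% and 7.94%), and in Oci-Ly18, 12 were higher and 1 lower (background 13% and 9.04%). In SUDHL6, 3 were higher and 3 lower (background 14% and 8.67%). The median log2 fold change was -0.22 in Oci-Ly7, 0.17 in Oci-Ly8, -0.02 in SUDHL6 and 0.18 in Oci-Ly18. Without the pair low in long transcripts, 22 members were higher in Oci-Ly8 and the median was 0.25. The Oci-Ly18 count of higher members was 7 without DMSO replicate 1 or EZH2i replicate 3, and the Oci-Ly7 count of lower members was 10 without DMSO replicate 1 and 9 without EZH2i replicate 2. In SUDHL6 no member was higher without DMSO replicate 1, EZH2i replicate 2 or EZH2i replicate 3, 1 was higher without DMSO replicate 2 or 3, and 1 was lower without EZH2i replicate 2. In Oci-Ly8, 1 member was lower without DMSO replicate 1.

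The test of a difference between lines was passed by 28 of the 42 members for EZH2i, against 24% of all genes, and 11 members were called in both directions in different lines: HSPA5, PDIA4, DNAJB11, HYOU1, SEL1L, SYVN1, DERL3, SEC61A1, SEC24D, SSR1 and FKBP11. Of all genes, 3.95% were called in both directions. SSR1, a subunit of the translocon-associated protein complex, had the smallest adjusted p (5.87e-08). It went from 266, 277 and 245 CPM to 207, 199 and 200 CPM in Oci-Ly7, and from 158, 164 and 142 CPM to 218, 193 and 203 CPM in Oci-Ly8. In both lines the groups did not overlap.
FKBP11, a prolyl isomerase of secretory cells (adjusted p of the difference 1.51e-07), was at 26.1, 24.6 and 24.7 CPM in Oci-Ly18 with DMSO and at 39.6, 40.4 and 40.1 CPM with EZH2i, the largest rise in that line (0.67, SE 0.089, adjusted p 6.3e-08). In Oci-Ly7 it fell from 37.3, 36.8 and 36.3 CPM to 31.1, 26.1 and 30.4 CPM. The level with EZH2i was thus highest in the line whose DMSO level was lowest.
HYOU1, the exchange factor that recharges HSPA5 (adjusted p 1.67e-07), rose in Oci-Ly8 from 390, 435 and 346 CPM to 598, 564 and 559 CPM, and fell in Oci-Ly7 from 424, 438 and 414 CPM to 373, 371 and 350 CPM. DERL3 (adjusted p 9.20e-07) had the largest fall in Oci-Ly7, 1.82-fold, to 7.04, 5.96 and 7.81 CPM (-0.86, SE 0.12, adjusted p 1.00e-06), and was higher in Oci-Ly18 at 14.3, 12.7 and 15.8 CPM.
TRAM2 led in Oci-Ly8, from 23, 26.6 and 16.4 CPM to 36.9, 40.2 and 38.8 CPM (0.80, SE 0.11, adjusted p 2.44e-07; 0.65 without the pair low in long transcripts). HSPA5 rose there to 1375, 1325 and 1300 CPM from 910, 1107 and 1174 CPM (0.33, SE 0.098, adjusted p 0.0157), a call lost without DMSO replicate 1 or EZH2i replicate 1 and in a fit of this line alone (adjusted p 0.0765). In SUDHL6 it was at 442, 387 and 452 CPM with EZH2i against 599, 446 and 519 CPM (-0.29, SE 0.098, adjusted p 0.0281), and there the groups overlapped and the call was lost without DMSO replicate 1, DMSO replicate 3 or EZH2i replicate 2, and in a fit of this line alone (adjusted p 0.119). In that line CALR had the largest fall (-0.29, SE 0.068, adjusted p 0.00113) and DNAJB9 the largest rise (0.49, SE 0.17, adjusted p 0.0345), the latter with overlapping groups and lost without DMSO replicate 1 or 3 or EZH2i replicate 2 or 3. EDEM1 was the member that fell in Oci-Ly18, to 101, 106 and 102 CPM (-0.61, SE 0.087, adjusted p 3.58e-07).

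**Figure D3:**
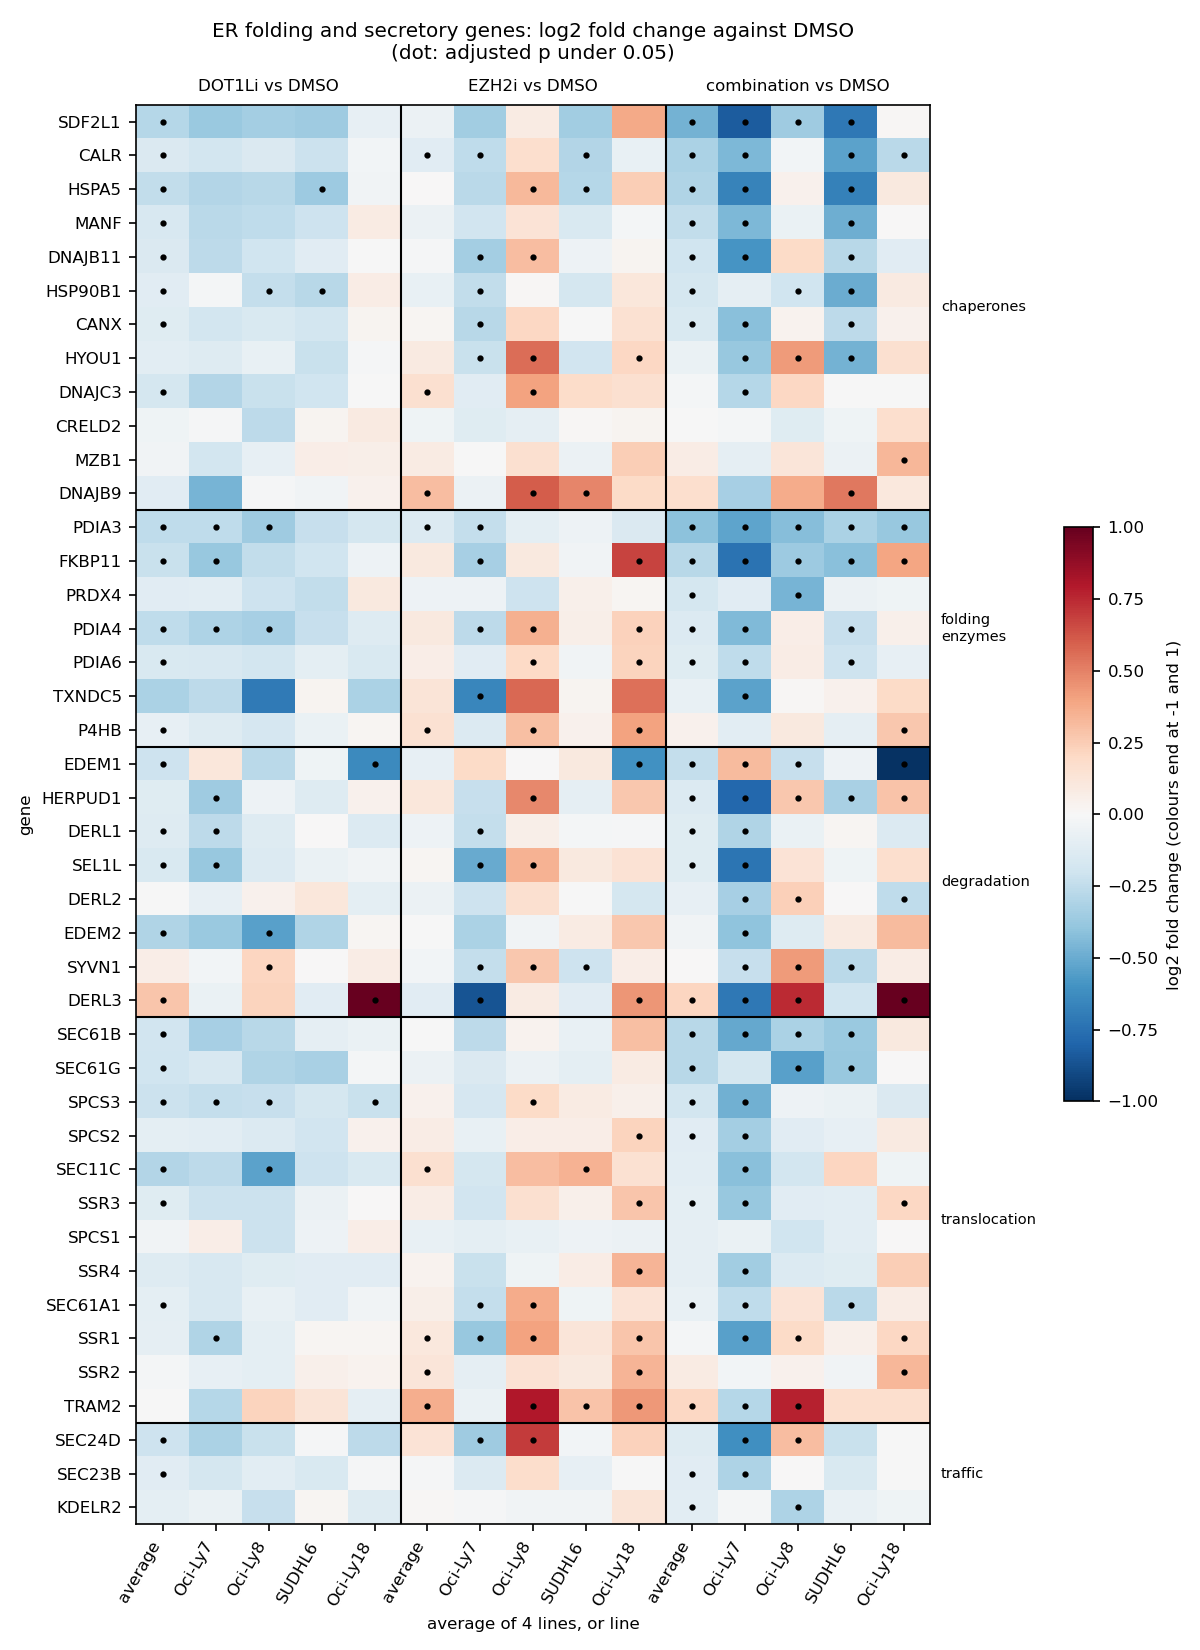
Log2 fold change against DMSO (colour, which ends at -1 and 1) of each of the 42 genes (rows, grouped by role) for DOT1Li, EZH2i and the combination, as the average of the 4 lines and in each line (columns). Dots mark an adjusted p under 0.05, and the columns of Oci-Ly7 are mostly blue for all 3 treatments, while those of EZH2i in Oci-Ly8 and Oci-Ly18 are mostly red.

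With both inhibitors, 24 members were lower and 2 higher on average (background 20.7% and 25.7%), and 37.2% of the genes at least as abundant as the lowest member were lower. The median log2 fold change was -0.11, against 0.08 for all genes and -0.04 for those at least as abundant as the lowest member. SDF2L1 (chr22:21642302-21644299), whose promoter stretch is printed above, fell most, 1.39-fold (-0.47, SE 0.073, adjusted p 7.78e-07). PDIA3 (chr15:43746394-43773279) followed at -0.41 (SE 0.036, adjusted p 1.51e-13), then CALR at -0.32 (SE 0.034, adjusted p 5.79e-11) and HSPA5 at -0.30 (SE 0.049, adjusted p 1.38e-06). HSP90B1 was at -0.17 (SE 0.036, adjusted p 7.90e-05). DERL3 (0.21, SE 0.059, adjusted p 0.00227) and TRAM2 (0.20, SE 0.053, adjusted p 0.00113) rose, and 4 members were higher without Oci-Ly8 DMSO replicate 3. The falls took in 7 of 12 chaperones, 5 of 7 folding enzymes, 4 of 8 degradation genes, 6 of 12 translocation genes and 2 of 3 traffic genes.

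Set against each single inhibitor, the combination was lower than EZH2i alone for 29 members and higher for 1, DERL3 (background 12.2% and 12.8%), with a median of -0.16. Against DOT1Li alone it was lower for 3 members, SDF2L1 (-0.19), CALR (-0.18) and PDIA3 (-0.16), and higher for 7, from PDIA4 (0.11) to DNAJB9 (0.28) (background 15.8% and 19.4%). No member passed the test for a combined effect unlike the sum of both log2 effects, where edgeR called 4 genes above and 5 below that sum among all genes (0.0225% and 0.0282%). At an unadjusted p under 0.05 that test had 3 members, EDEM2 (0.27, SE 0.096), FKBP11 (-0.16, SE 0.063) and TRAM2 (-0.15, SE 0.075). The share of all genes at that level was not counted, so these 3 are not read as departures from the sum.

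By line, the combination lowered 31 members and raised 1 in Oci-Ly7 (background 12.2% and 17.7%), and lowered 17 and raised 1 in SUDHL6 (16.8% and 22.6%). In Oci-Ly8 it lowered 9 and raised 8 (16.9% and 18.1%), and in Oci-Ly18 it lowered 4 and raised 8 (14% and 21.1%). The medians were -0.36, -0.11, 0.01 and 0.07 in that order. Falls were less frequent among members than among genes at least as abundant as the lowest member in Oci-Ly8 (21.4% against 27.3%). The same held for Oci-Ly18 (9.52% against 24.7%). Rises took in 19% of members in either line, where such genes stood at 18.9% (Oci-Ly8) and 15% (Oci-Ly18). Without the pair low in long transcripts, 5 were lower and 10 higher in Oci-Ly8, with a median of 0.08. The higher count there was 4 without combination replicate 1, and the lower count was 4 without DMSO replicate 3 and 5 without combination replicate 2. In Oci-Ly18, 5 were higher without DMSO replicate 1 or combination replicate 3. Differences between lines were called for 34 members, against 43.8% of all genes.

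PDIA3 was the one member called lower by the combination in all 4 lines, as were 1.92% of all genes. In Oci-Ly7 it was at 459, 441 and 449 CPM in DMSO and at 335, 288 and 315 CPM in the combination, and in Oci-Ly8 at 287, 306 and 350 against 232, 231 and 237 CPM. In SUDHL6 it was at 269, 266 and 270 against 206, 214 and 226 CPM, and in Oci-Ly18 at 268, 298 and 294 against 206, 223 and 231 CPM. In no line did the groups overlap, and the difference between lines did not pass the test (adjusted p 0.321).

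The chaperones fell furthest in Oci-Ly7 and SUDHL6, where 8 of the 12 were lower in each. Of all genes, 12.2% were lower in Oci-Ly7 and 16.8% in SUDHL6. Of genes at least as abundant as the lowest member, 20% and 30.6% were lower. HSPA5 (chr9:125234853-125241382) went from 918, 935 and 936 CPM to 653, 533 and 567 CPM in Oci-Ly7 (-0.67, SE 0.098, adjusted p 4.13e-07) and from 599, 446 and 519 CPM to 316, 299 and 366 CPM in SUDHL6 (-0.67, SE 0.099, adjusted p 3.38e-07), 1.59-fold lower in each. In Oci-Ly8 it was at 1093, 1112 and 1080 CPM with the combination, within the DMSO range (adjusted p 0.81), and in Oci-Ly18 at 735, 835 and 886 CPM against 693, 842 and 762 CPM (adjusted p 0.489). HSPA5 therefore separated the lines into a pair where it fell and a pair where the groups overlapped.
SDF2L1 had the largest fall in both Oci-Ly7, from 67, 68.1 and 68.9 CPM to 42, 37.2 and 35.1 CPM (-0.83, SE 0.14, adjusted p 7.74e-06), and SUDHL6, from 43.2, 32.9 and 41.9 CPM to 21.8, 22.2 and 27.8 CPM (-0.72, SE 0.15, adjusted p 0.000131). HSP90B1 fell in SUDHL6 (-0.50, SE 0.073, adjusted p 3.01e-07) and was at -0.09 in Oci-Ly7 (SE 0.073, adjusted p 0.389), where its groups overlapped. It was lower in Oci-Ly8 (-0.20, adjusted p 0.0265), which was -0.06 (adjusted p 0.549) without the pair low in long transcripts and was not called without combination replicate 2 or 3 either. That call was also lost with DESeq2 (adjusted p 0.0548), with its size factors (0.0695), with no filter on low counts (0.0586) and in a fit of this line's libraries alone (0.231). DNAJB9 rose in SUDHL6 (0.53, SE 0.17, adjusted p 0.0132), from 9.35, 11.1 and 10.2 CPM to 11.2, 16.7 and 16.4 CPM, a call lost without DMSO replicate 1 or combination replicate 2 or 3.

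Other members changed in opposite directions. DERL3 (adjusted p of the difference between lines 3.35e-12) went to 21.8, 20.2 and 22 CPM in Oci-Ly18 (1.02, SE 0.12, adjusted p 9.70e-10) and to 17.6, 15.5 and 14 CPM in Oci-Ly8 from 10.7, 7.85 and 9.53 CPM. In Oci-Ly7 it went down to 8.06, 7.07 and 7.92 CPM. It was thus higher than DMSO in a pair of lines and lower in another, with no overlap in any of these 3.
EDEM1 (adjusted p 2.32e-11) was 1.99-fold lower in Oci-Ly18, at 79.8, 77.6 and 79.8 CPM (-0.99, SE 0.088, adjusted p 7.78e-13), and was the member that rose in Oci-Ly7, from 337, 312 and 294 CPM to 363, 419 and 394 CPM (0.32, SE 0.084, adjusted p 0.00263). HYOU1 (adjusted p 1.18e-09) went up in Oci-Ly8 to 557, 510 and 509 CPM and down in SUDHL6 from 324, 288 and 298 CPM to 219, 206 and 232 CPM. FKBP11 (adjusted p 2.74e-09) fell in Oci-Ly7 to 22.9, 20.4 and 23 CPM and rose in Oci-Ly18 to 29.9, 32.7 and 36.4 CPM.
In all, 11 members were called in both directions in different lines with the combination, against 9.65% of all genes. In Oci-Ly8 the largest rise was that of TRAM2, to 37.6, 39.4 and 35.9 CPM (0.77, SE 0.11, adjusted p 2.16e-07; 0.63 without the pair). The largest fall there was that of SEC61G, a small subunit of the SEC61 channel, from 201, 195 and 324 CPM to 169, 166 and 158 CPM (-0.54, SE 0.13, adjusted p 0.000795). The value of 324 was that of the DMSO library low in long transcripts, and without the pair SEC61G was at -0.24 (adjusted p 0.00823), and without that library alone its call was lost (adjusted p 0.0566), as it was in a fit of this line alone (0.0523).

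**Figure D4:**
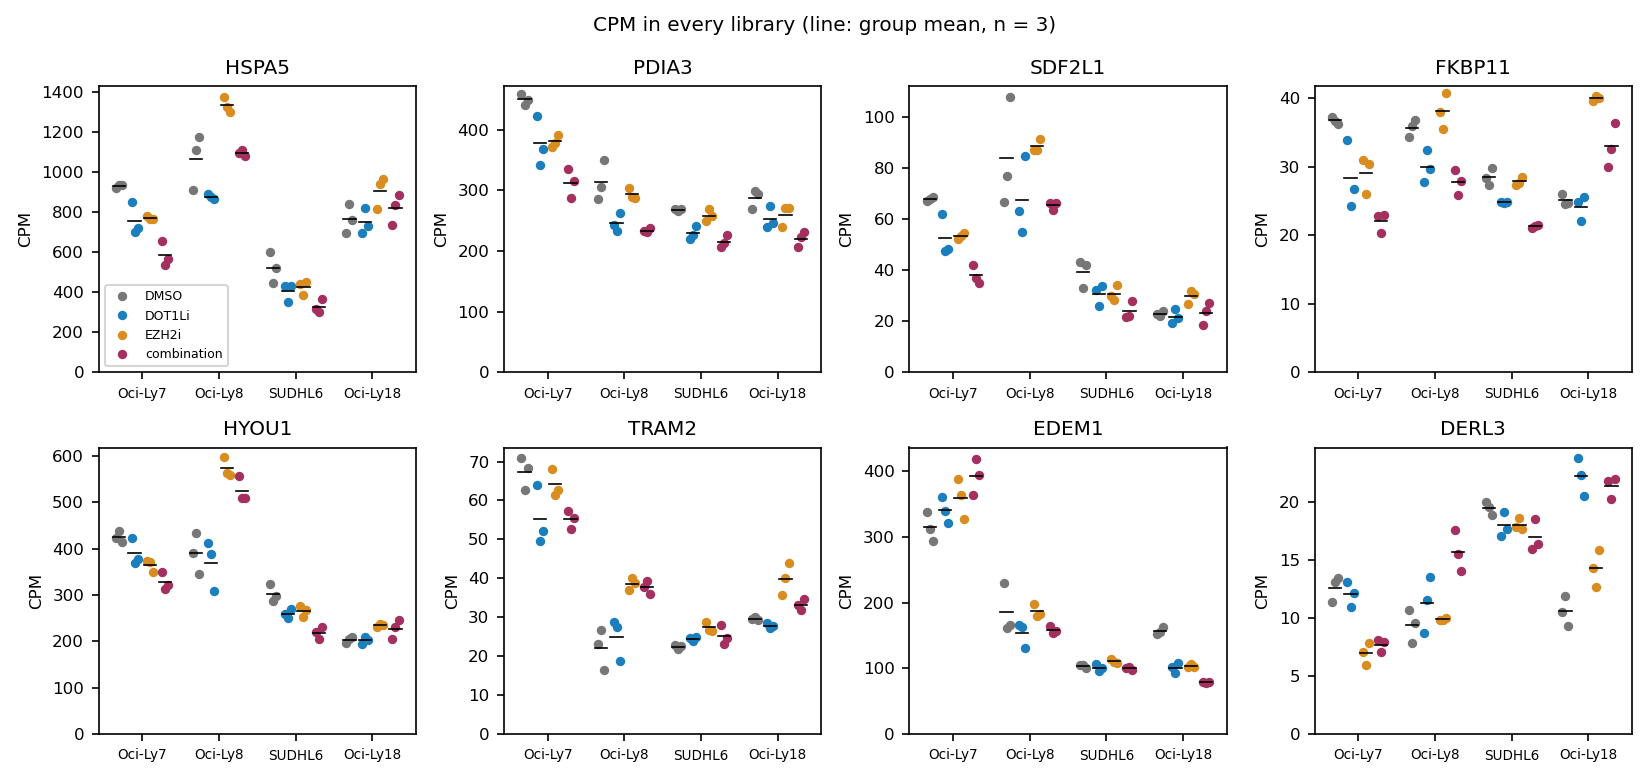
CPM in each of the 48 libraries (points; lines are means of 3 replicates) by cell line (x axis) and treatment (colour) for HSPA5, PDIA3, SDF2L1, FKBP11, HYOU1, TRAM2, EDEM1 and DERL3; y axes are linear and start at 0. PDIA3 in the combination lies below DMSO in every line, while EDEM1 and DERL3 move in opposite directions in Oci-Ly18.

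Taken as one value per library, the median over the 42 genes of log2 CPM minus the DMSO mean of the line gave the same picture as a description. In Oci-Ly7 it was -0.36 ± 0.060 with the combination, -0.22 ± 0.14 with DOT1Li and -0.20 ± 0.0059 with EZH2i (SD, n = 3). In Oci-Ly8 and Oci-Ly18 it was 0.18 ± 0.067 and 0.18 ± 0.060 with EZH2i. With DOT1Li 1 of the 3 Oci-Ly7 libraries, replicate 1, was at -0.058 and the others at -0.30 and -0.31.

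**Figure D5:**
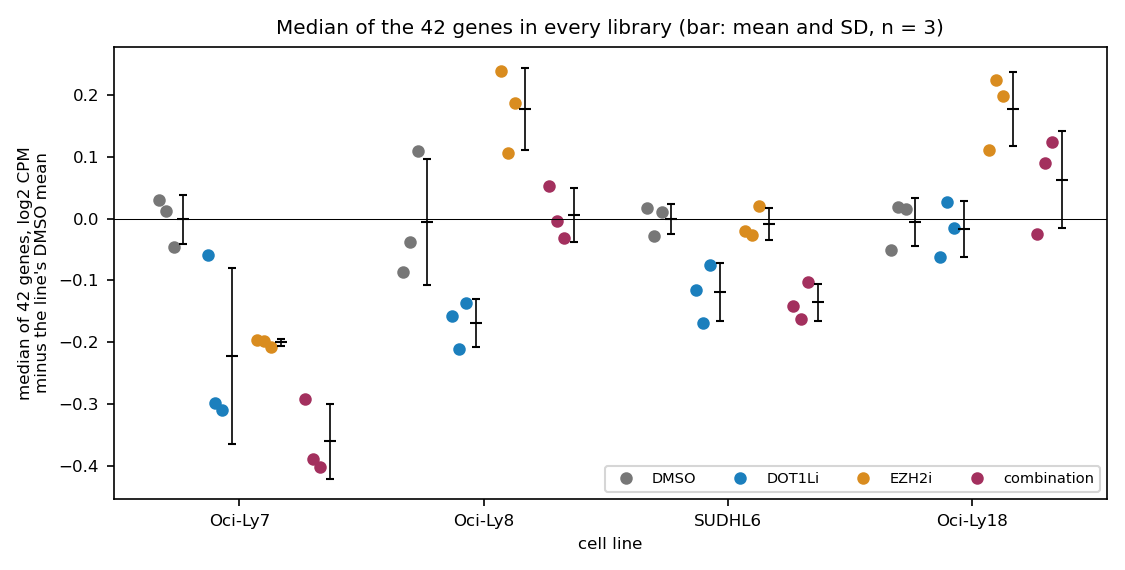
Median over the 42 genes of log2 CPM minus the mean of the DMSO libraries of the line (y axis), for each library (points, coloured by treatment) in each line (x axis), with the mean and SD of 3 replicates as bars. All Oci-Ly7 libraries with an inhibitor lie below 0, and the EZH2i libraries of Oci-Ly8 and Oci-Ly18 lie between 0.11 and 0.24.

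Of the 6 genes with an ER stress element in the window, 5 were lower with DOT1Li and 5 with the combination on average, none was higher, and the medians were -0.13 and -0.16. CRELD2, a chaperone-like ER protein, was the one not called, at -0.04 (adjusted p 0.802) and -0.0038 (adjusted p 1.00). Of 11 other tested genes with the element, among them XBP1, SERP1, ERO1B and FICD, 3 were lower and 1 higher with DOT1Li, and 4 and 1 with the combination. Of the 3 with ER stress element II, SDF2L1 was lower with DOT1Li, and SDF2L1 and HERPUD1, a stress-induced degradation protein, with the combination. Of all 42 members, 59.5% were lower with DOT1Li and 57.1% with the combination. The shares were 5.19% and 20.7% of all genes, and 9.9% and 37.2% of genes at least as abundant as the lowest member. Whether the elements bear on the falls was not tested.

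Upstream factors were followed in the same libraries. XBP1 was lower with DOT1Li on average (-0.39, SE 0.058, adjusted p 8.41e-06) and with the combination (-0.25, SE 0.058, adjusted p 0.00041), and was at -0.04 with EZH2i (adjusted p 0.75). With EZH2i it was lower in Oci-Ly7 (-0.65, adjusted p 4.39e-05) and SUDHL6 (-0.45, adjusted p 0.00303) and higher in Oci-Ly18 (0.96, adjusted p 4.78e-08), where it went from 66.3, 70.3 and 61.5 CPM to 137, 129 and 120 CPM.
With the combination, XBP1 fell in SUDHL6 from 353, 324 and 328 CPM to 166, 157 and 166 CPM (-1.04, adjusted p 1.36e-09). It was also lower in Oci-Ly8 (-0.49, adjusted p 0.000646) but higher in Oci-Ly18 (0.50, adjusted p 0.00101), so the average hides opposite directions. In Oci-Ly7, where 31 members were lower, XBP1 was at 488, 570 and 429 CPM against 531, 496 and 423 CPM, and the groups overlapped (0.04, adjusted p 0.889). Gene counts do not separate spliced, active XBP1 from the unspliced form.
Among 17 regulators of the unfolded protein response, 3 were lower with DOT1Li, 5 higher with EZH2i, and 5 higher and 2 lower with the combination. Of all genes, 5.19% were lower with DOT1Li, 15.7% higher with EZH2i, and 25.7% higher and 20.7% lower with the combination, so the combination counts, at 29.4% and 11.8%, were near or below that background. The medians were -0.07, 0.01 and 0.05, against 0.01, 0.03 and 0.08 for all genes. ERN1, the sensor that splices XBP1, rose with EZH2i (0.63, SE 0.060, adjusted p 1.05e-11), and ATF4 fell with the combination (-0.38, SE 0.062, adjusted p 1.85e-06).

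Plasma cell genes went in different directions. PRDM1 rose with all 3 treatments (1.02, 0.93 and 1.81 on average, adjusted p 1.22e-05, 6.06e-06 and 1.65e-13), most in Oci-Ly7 with the combination, from 2.92, 2.47 and 2.02 CPM to 23.6, 40.6 and 40 CPM. This was the line in which most members fell. JCHAIN, the joining chain of secreted IgM and IgA, fell with all 3 (-0.55, -0.35 and -0.94, adjusted p 0.000669, 0.00881 and 5.07e-09), most in Oci-Ly8 with the combination, from 118, 164 and 181 CPM to 32.1, 35.5 and 34.3 CPM. In SUDHL6 it was higher with EZH2i, at 26.9, 23.1 and 13.6 CPM against 17.7, 13.6 and 8.8 CPM (0.67, SE 0.24, adjusted p 0.0425), with overlapping groups and a call lost in 4 of 12 fits that left out 1 library and in a fit of this line alone (adjusted p 0.262). Of 14 plasma cell factors and secreted cargo genes, 1 rose and 3 fell with DOT1Li, 5 rose and 2 fell with EZH2i, and 3 rose and 4 fell with the combination. Of all genes, DOT1Li raised 5.08% and lowered 5.19%, EZH2i raised 15.7% and lowered 12.5%, and the combination raised 25.7% and lowered 20.7%, so the 2 falls with EZH2i (14.3%) were near the background. The medians of the list were -0.01, 0.27 and 0.16.

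Related genes outside the 42 were counted in the same averages, where 5.19% of all genes fell with DOT1Li, 15.7% rose and 12.5% fell with EZH2i, and 25.7% rose and 20.7% fell with the combination. Of 23 other translocation and glycosylation genes, 5 fell with DOT1Li and 13 with the combination, where 1 rose, while 4 rose and 3 fell with EZH2i, both near the shares of all genes. Of 16 tested other folding genes, 5 fell with DOT1Li and 7 with the combination, led by ERO1A, the oxidase that recharges disulfide isomerases (-0.30 and -0.45, adjusted p 1.53e-06 and 1.85e-12). In the combination 2 of these rose, and with EZH2i 2 rose and 1 fell. Of 16 other degradation genes, 1 fell with DOT1Li, 7 with EZH2i and 8 with the combination, led in the last by the ubiquitin-conjugating enzyme UBE2J1 (-0.52, adjusted p 1.64e-15). Of 30 other vesicle traffic genes, 7 fell with DOT1Li, 4 rose and 4 fell with EZH2i, and 1 rose and 14 fell with the combination. The medians with the combination were -0.12, -0.06, -0.06 and -0.09 for these 4 lists in turn, against 0.08 for all genes. The 8792 genes at least as abundant as the lowest of the 42 had a median of -0.04 with the combination. Of these 8792 genes, 9.9% fell with DOT1Li, 22.5% with EZH2i and 37.2% with the combination.
Chaperones outside the ER also fell. Of 23 tested cytosolic and mitochondrial chaperones, 9 fell with DOT1Li, 19 with EZH2i and 20 with the combination, with medians of -0.10, -0.18 and -0.39, against -0.13, 0.02 and -0.11 for the 42 ER genes. The cofactor BAG3 was the one that rose, with EZH2i (0.42) and with the combination (0.22). In the combination, 3 of 3 tested myeloid markers, 1 of 3 T cell, 1 of 2 NK cell and 2 of 5 epithelial and stromal markers also rose. Each line was grown with no other cells, and how these markers relate to the members' changes was not tested.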

How the data were processed

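Per the labels' protocols, poly(A) RNA from cells treated for 6 days was made into stranded libraries (xGen kit). The submitters' processing notes name STAR, DESeq2 and GRCh38 (hg38), with no versions. How reads were counted, with which gene models and strand option, is not given in the sources used here. The deposited table holds raw counts per Ensembl gene with symbols, not normalized by the authors. The growth protocol does not name Oci-Ly7, so lines are named as the sample titles name them.

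The tests used edgeR 4.0.16 (R 4.3.3): filterByExpr on 16 groups, TMM scaling, a quasi-likelihood fit with robust shrinkage and 32 residual degrees of freedom, and Benjamini-Hochberg adjustment over all 17749 genes. A gene is called at an adjusted p under 0.05. Averages weight the 4 lines equally; differences between lines are F tests. SE was taken as the size of the log2 fold change divided by the root of its F statistic. CPM uses TMM-scaled totals, and log2 CPM a prior count of 2. Exonic lengths are from GENCODE 29, gene positions from the deposited count table and promoters from RefSeq (GRCh38.p14). The fit was also run on simulated counts with a common spread between replicates taken from the Oci-Ly7 DMSO libraries. That does not cover the larger spread between Oci-Ly8 DMSO replicates, and no result here rests on it.

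Replicates of a group differed by more than sampling noise (chi-square over degrees of freedom from 1.83 to 46.5). Replicate numbers were not taken as pairs: of 72 same-numbered pairs, 17 had deviations correlated over 0.1. Yet all 48 libraries correlated best with their own number, so counts with a replicate block are given in the last section. DESeq2 1.42.0, its size factors, other filters, single-line fits, a replicate block and leaving out libraries were alternatives.

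The members and lists were chosen with earlier results of these data known. Named in full are, for each average, the 4 called members with the largest rise and fall, per line the largest called rise and fall, the 4 smallest p of each difference between lines, HSPA5, HSP90B1, XBP1, PRDM1 and JCHAIN, and in other lists the called genes with the largest rise or fall. Other genes were named after their values were seen.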

Additional observations from a re-analysis of the deposited data

Results flagged for a closer look

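Responses of the members to an inhibitor that differed between the 4 lines, by edgeR's F test across all genes, were called for 3 members with DOT1Li, 28 with EZH2i and 34 with the combination. The shares of all genes with such a call were 5.14% under DOT1Li, 24% under EZH2i and 43.8% when both inhibitors were given. The 3 of 42 members called under DOT1Li were thus near the background. For DOT1Li the adjusted p was 1.30e-06 for DERL3, 0.000124 for EDEM1 and 0.0483 for HSP90B1. The call of HSP90B1 was lost in 36 of the 48 fits that left out 1 library. For EZH2i it was 5.87e-08 for SSR1, 1.51e-07 for FKBP11, 1.67e-07 for HYOU1 and 9.20e-07 for DERL3. For the combination it was 3.35e-12 for DERL3, 2.32e-11 for EDEM1, 1.18e-09 for HYOU1 and 2.74e-09 for FKBP11. DERL3 was the one member among the 4 smallest p-values for all 3 treatments, and its DMSO level was lowest in Oci-Ly8 and highest in SUDHL6.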

How the results depend on the processing

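Every count of called members was within 1.5 times its reported value under the stricter filter, and the members' median log2 fold change kept within the spread of replicates under every alternative except in Oci-Ly8. There the median without the pair low in long transcripts was 0.25 for EZH2i and 0.083 for the combination, and without DMSO replicate 3 alone -0.12 for DOT1Li and 0.23 for EZH2i. Where counts moved further, the cause was not tested, except that single-line fits have fewer libraries.

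With DESeq2, 4 members were higher with the combination on average, and 13 were lower with DOT1Li in Oci-Ly7, 4 with DOT1Li in SUDHL6 and 5 with the combination in Oci-Ly8. With its size factors 1 was lower with DOT1Li in Oci-Ly18. With no filter, DOT1Li gave 0 higher and 10 lower in Oci-Ly8, 4 lower in SUDHL6 and 1 lower in Oci-Ly18. Fits of one line's libraries alone gave 18 lower with DOT1Li and 1 higher and 25 lower with EZH2i in Oci-Ly7. In Oci-Ly8 they gave 0 higher and 0 lower with DOT1Li, 7 higher with EZH2i, and 4 higher and 2 lower with the combination. In SUDHL6 they gave 8 lower with DOT1Li and 5 with EZH2i, and in Oci-Ly18 6 lower with DOT1Li and 20 higher and 2 lower with EZH2i.

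Without the pair low in long transcripts, 12 members were higher with EZH2i and 4 with the combination on average, 21 were lower with DOT1Li in Oci-Ly7, and Oci-Ly8 had 0 higher with DOT1Li and 5 lower with the combination. SUDHL6 then had 8 lower with DOT1Li, 6 lower with EZH2i and 2 higher with the combination, and 6 members differed between lines for DOT1Li.

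Same-numbered libraries of a line were not known to be paired: the correlation of their deviations ran from 0.0195 to 0.415 (median 0.063), and all 48 libraries correlated best with their own number, a hint from the data and not from the design. With a replicate block, 14 members were higher with EZH2i and 5 with the combination on average, and 5 were lower in the combination than in DOT1Li. In Oci-Ly7 the block gave 23 lower with DOT1Li and 1 higher and 27 lower with EZH2i, in Oci-Ly8 16 lower with DOT1Li, and in Oci-Ly18 19 higher with EZH2i. In SUDHL6 the block gave 10 lower with DOT1Li, 6 lower with EZH2i and 2 higher with the combination, and 8 members differed between lines for DOT1Li. The block ended none of the calls of named genes. Of those calls, single-line fits ended 10, leaving out the pair 4, DESeq2 2 (HSP90B1 with the combination in Oci-Ly8 and JCHAIN with DOT1Li in Oci-Ly18, adjusted p 0.0686), no filter 2 and DESeq2 size factors 1, and the stricter filter none. Of the 10, PRDM1 with DOT1Li in Oci-Ly7 was at adjusted p 0.195, and the other 9 stand beside their results. In SUDHL6 with DOT1Li the single-line fit kept 1 of the 2 reported calls among its 8.

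Leaving out 1 library at a time gave, on average over lines, 16 to 30 lower members with DOT1Li, 5 to 11 higher with EZH2i and 2 to 4 higher with the combination. DOT1Li gave 0 to 20 lower in Oci-Ly7, 0 to 2 higher and 2 to 14 lower in Oci-Ly8, 0 to 4 lower in SUDHL6 and 1 to 2 lower in Oci-Ly18, with 2 to 6 differing between lines. EZH2i gave 9 to 17 lower in Oci-Ly7, 0 to 1 lower in Oci-Ly8, 0 to 3 higher and 1 to 3 lower in SUDHL6, and 7 to 14 higher in Oci-Ly18. The combination gave 4 to 10 higher and 4 to 11 lower in Oci-Ly8, 0 to 1 higher in SUDHL6 and 5 to 10 higher in Oci-Ly18.

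Signs reversed for 8 log2 fold changes, none of them called. XBP1 with EZH2i in Oci-Ly8 was at -0.016 and at 0.0096 with DESeq2, 0.0097 with its size factors, 0.093 without the pair and -0.095 to 0.078 with 1 library left out. Over such fits HSPA5 ran from -0.023 to 0.030 with EZH2i on average, from -0.059 to 0.12 with the combination in Oci-Ly8 and from -0.10 to 0.042 with DOT1Li in Oci-Ly18. HSP90B1 ran from -0.067 to 0.022 with DOT1Li in Oci-Ly7 and from -0.050 to 0.13 with EZH2i in Oci-Ly8, XBP1 from -0.077 to 0.13 with the combination in Oci-Ly7, and JCHAIN from -0.45 to 0.040 with the combination in SUDHL6. The library with 5174269 counts limits what Oci-Ly8 can show for DOT1Li.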
